A study of Homo sapiens with 46 samples.

Results

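The cytoplasm-to-nucleus ratio of each gene's RNA was compared between ectoderm cells and the human pluripotent stem cells (hPSC) they were made from. The ratio change of a gene is the log2 ratio of its cytoplasm level to its nucleus level in ectoderm, minus the same log2 ratio in hPSC, on counts summed over all transcripts of the gene. A positive ratio change therefore means that a larger part of the measured RNA lay on the cytoplasm side in ectoderm, and a negative one that a larger part lay on the nucleus side. The contrast used 12 of the 46 libraries of the series, 3 in each of 4 groups: hPSC cytoplasm, hPSC nucleus, ectoderm cytoplasm and ectoderm nucleus. The hPSC were H1 cells, an established human embryonic stem cell line, kept in mTeSR1 on Matrigel. The ectoderm was the same line after 5 days in DMEM/F12 with 15% KOSR (a serum replacement) and 2 µM each of A83-01, PNU-74654 and Dorsomorphin, which are inhibitors of activin and TGF-beta receptors, of beta-catenin binding to its TCF partners and of BMP receptors. All groups thus come from 1 line, and the labels do not say whether replicates were separate cultures, so p-values measure only the spread between these samples.

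Cells make messenger RNA in the nucleus and translate it in the cytoplasm, so most mature mRNAs of housekeeping genes are found mainly in the cytoplasm, while unspliced or retained RNAs are found mainly in the nucleus. The mRNAs of secreted and membrane proteins are translated on the endoplasmic reticulum (ER), a membrane network that is continuous with the outer membrane of the nucleus. Here cells were opened with the detergent NP-40 in cold buffer that also held alpha-amanitin, an inhibitor of RNA polymerase II. The lysate was spun through sucrose, the supernatant gave the cytoplasm libraries, and the nucleus libraries came from a portion of the pellet. Further pellet was lysed with NP-40 and urea and split into a supernatant, called nucleoplasm, and a pellet, called chromatin. The terms nucleus and cytoplasm below name these preparations.

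The hPSC and neuroectoderm marker lists differed in the direction of the labels. The summed level of 10 hPSC markers was 8436 to 9018 CPM (library-scaled counts, relative to the library total) in hPSC cytoplasm and 2064 to 2608 in ectoderm cytoplasm, and that of 12 neuroectoderm markers was 58.1 to 67.9 and 1314 to 1444. Within the hPSC list LIN28A, at 1531 to 1900 CPM, made most of the ectoderm sum, and SOX2, which neural cells also express, was higher in ectoderm cytoplasm (324.8 to 436.9) than in hPSC cytoplasm (180.7 to 197). Neural crest and surface ectoderm markers, epithelial keratins among them, summed to 917.2 to 1043 CPM in hPSC cytoplasm and 1466 to 1559 in ectoderm cytoplasm, above the neuroectoderm sum. Mesoderm markers summed to 396.4 to 468.7 CPM in hPSC nucleus, nearly all of it KDR (390.6 to 463.3), and to 13.9 to 19.1 in ectoderm nucleus. The part of these other cell type markers in the results was not tested. NANOG and LEFTY1 had no entry in the ectoderm table, SOX1 and HES5 had none in either, and none of 8 endoderm markers had an entry in either. Of the 12 neuroectoderm markers only OTX2 and FEZF1 had an entry in the hPSC table, against 10 in the ectoderm table. The hPSC sum of that list thus rests on 2 genes and is no measured level of the others. Of 8 neural crest and surface ectoderm markers 4 had an entry in the hPSC table and 6 in the ectoderm table. The fraction markers did not all follow the labels. The 13 mRNAs encoded in the mitochondrial genome, which lies outside the nucleus, made 11.3% to 13.3% of the counts in hPSC nucleus libraries and 0.338% to 0.549% in hPSC cytoplasm libraries. MALAT1 and NEAT1, which are known as nuclear RNAs, were higher in cytoplasm than in nucleus libraries of both cell types. Library totals ran from 7738946 to 21298678 counts, and 2 libraries stood apart from the others of their group. Ectoderm nucleus replicate 2 had a Pearson's r of log2 CPM across genes of 0.947 and 0.965 with its group, against 0.988 between the other pair. For hPSC cytoplasm replicate 1 it was 0.972 and 0.962, against 0.991 (genes are not independent replicates).

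The ratio differed between the cell types for 6562 of 13279 genes tested, or 49.4%: it was higher in ectoderm for 3584 genes (27%) and lower for 2978 genes (22.4%). With edgeR's quasi-likelihood F test, a gene was called at a Benjamini-Hochberg adjusted p under 0.05 over all genes tested. In 6256 genes (47.1%) no ectoderm library ratio overlapped an hPSC one, over all 9 pairs of a cytoplasm with a nucleus library per cell type. The split between directions depended on the scale. In the authors' TPM, plus 1 and on the log2 scale, 85.7% of the calls were higher (4793 against 801), and the median of all genes was 0.53, where it was 0.14 on the counts. Levels here are relative to a library's total, so an absolute gain or loss of RNA in a fraction cannot be read from them, and fewer cells of a type cannot be told apart from less RNA per cell.

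The ratios lay closer together in ectoderm. Across the 13279 genes the SD of the log2 ratio was 1.27 in hPSC and 0.940 in ectoderm, and 37.5% of genes in hPSC, but 22.7% in ectoderm, lay more than 2-fold on one side. The ectoderm ratio was nearer to 0 than the hPSC ratio for 8363 genes (63.0%), and for 74.4% of the genes called. In ectoderm 6653 genes (50.1%) were called between the fractions, 3327 on the cytoplasm (25.1%) and 3326 on the nucleus side (25%), against 8452 (63.6%) in hPSC. The even ectoderm split depended on the scaling: it was 4939 and 1516 without TMM factors and 3366 and 1232 in TPM plus 1, where that of hPSC was 2387 and 4425. Of the 4323 genes (32.6%) higher in hPSC cytoplasm, 1621 were also higher in ectoderm cytoplasm, 2195 were not called in ectoderm, and 507 were called on the other side. Of the 4129 genes (31.1%) higher in hPSC nucleus, 2035 were also higher in ectoderm nucleus, 1758 were not called in ectoderm, and 336 were called on the other side. Among the 2035 genes higher in the nucleus of both cell types, the ratio still rose for 1108 and fell for 18. Across genes, the ratios of the cell types had a Pearson's r of 0.508 and a Spearman's rho of 0.422, given as a description over genes that share libraries and depth.

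**Figure D1:**
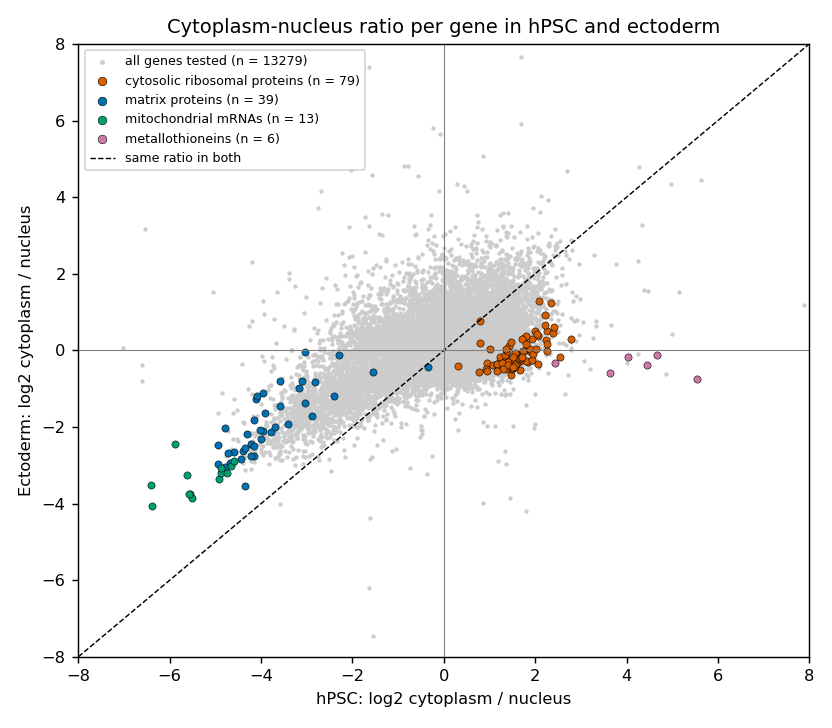
Log2 cytoplasm-to-nucleus ratio of each of 13279 genes in hPSC (horizontal axis) and ectoderm (vertical axis), with 4 gene lists in colour, a dashed line of equal ratios and 3 genes outside the axes. Ribosomal protein and metallothionein genes lie below the line near an ectoderm ratio of 0, while matrix and mitochondrial mRNAs lie above it at negative ratios.

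The ratio fell for most mRNAs of the translation machinery. Of 79 cytosolic ribosomal protein genes, which encode the protein part of the ribosome, the ratio fell for 75 and rose for 0, with a median change of −1.72 beside 0.14 over all genes tested. Their median log2 ratio was 1.6 in hPSC and −0.16 in ectoderm. The median log2 level in the nucleus was higher in ectoderm than in hPSC by 1.48, while that in the cytoplasm differed by −0.08. The fall was called for 71 of 79 genes without ectoderm nucleus replicate 2 (median −1.41), and for 71 without hPSC cytoplasm replicate 1 (median −1.37), the library with the highest share of these mRNAs. The 4 genes not called were RPL6, RPL5, RPS24 and RPL4, named after their values were seen, with changes of −0.03, −0.59, −0.79 and −0.72.

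Many of these mRNAs share the start of their sequence. Ribosomal protein and elongation factor mRNAs commonly begin with a C followed by a run of pyrimidines, known as a 5′ terminal oligopyrimidine (TOP) tract, through which the growth-regulating kinase mTOR controls their translation. The windows printed here run from 10 bases before to 20 bases into the annotated start of the RefSeq gene on GRCh38.p14, on the gene's strand, and the capitals mark the unbroken run of C or T letters where the start base is C. They are shown for RPS12, RPLP0, RPS27 and EEF1A1, whose ratio fell, and for ODC1, whose ratio fell and whose start is not of this kind. LAMB1, whose start is of this kind and whose ratio rose, is shown as well. In other elongation factors start and call did not match: EEF1B2 and EEF1G fell with a run of 0, and EEF2, with a run of 7, was not called. RPS12 lies at chr6:132814559-132814588 (plus strand), RPLP0 at chr12:120201092-120201121 (minus), RPS27 at chr1:153990752-153990781 (plus), EEF1A1 at chr6:73521013-73521042 (minus), ODC1 at chr2:10448308-10448337 (minus) and LAMB1 at chr7:108003142-108003171 (minus).
RPS12: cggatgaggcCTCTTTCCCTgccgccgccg
RPLP0: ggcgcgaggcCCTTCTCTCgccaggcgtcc
RPS27: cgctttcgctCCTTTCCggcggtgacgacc
EEF1A1: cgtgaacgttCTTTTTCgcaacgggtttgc
ODC1: gtggggctttgtcagtccctcctgtagccg
LAMB1: ttctaattccCTTCTTTgggctcgggggct

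A start base C with a run of at least 5 C or T letters was found in 43 of the 63 ribosomal protein genes that matched a RefSeq window (68.3%), in 9 of 27 translation factor genes (33.3%) and in 4.04% of all 27305 windows. Among the genes tested that matched a window it was 5.36% of 10115. None of 26 proteasome and 17 glycolysis genes held it. It was found in 9 of 64 nuclear-encoded respiratory chain genes (14.1%) and 5 of 69 mitochondrial ribosomal protein genes (7.25%). Of the matrix genes, a list whose ratio rose, 3 of 29 held it (10.3%). Outside the ribosomal proteins, the ratio fell for 30.9% of 499 genes with such a start and rose for 23.4%, and it fell for 23.5% of 9553 genes without it and rose for 26.5%. The match describes the annotated start only.

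RPS12, a protein of the small subunit, shows the pattern by library. It stood at 3004, 1562 and 1299 CPM in hPSC cytoplasm and at 354.5, 229.7 and 262.8 in hPSC nucleus. In ectoderm it stood at 1046, 1096 and 1143 CPM in cytoplasm and at 669.2, 1245 and 760.2 in nucleus. Every hPSC cytoplasm library was above every hPSC nucleus library, while the ectoderm fractions overlapped, and the log2 ratio went from 2.79 to 0.30 (change −2.5, SE 0.42, adjusted p = 0.00043). RPLP0, a protein of the ribosomal stalk, was at 5758, 4563 and 4067 CPM in hPSC cytoplasm and at 1978, 1433 and 1784 in hPSC nucleus. The ectoderm values were 3874, 4298 and 3910 CPM in cytoplasm and 4837, 8801 and 5341 in nucleus. Its order was thus reversed without overlap in either cell type, with a ratio of 1.47 in hPSC and −0.65 in ectoderm and a change of −2.12 (SE 0.35, adjusted p = 0.00034).

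Several other lists of housekeeping genes moved the same way. Of 36 translation factors the ratio fell for 22 and rose for 0 (median −0.79). Among them EEF1B2, an exchange factor for the elongation factor eEF1A, changed by −2.0 and EIF3K, a subunit of initiation factor 3, by −2.0. The ratio fell for 60 of 77 mitochondrial ribosomal proteins (1 rose, median −1.11), 55 of 78 nuclear-encoded respiratory chain subunits (0 rose, −1.07) and 26 of 31 proteasome subunits (0 rose, −0.92). It fell for 13 of 17 glycolytic enzymes (0 rose, −1.07), 13 of 18 CCT chaperonin and heat shock chaperone genes (0 rose, −0.83) and 17 of 19 actin, tubulin and related genes (1 rose, −1.26). TPI1, a glycolytic isomerase, changed by −1.84, PSMB5, a catalytic proteasome subunit, by −1.58, and TMSB10, an actin monomer binder, by −2.12. The exception among actin genes was ACTN4, an actin cross-linker, which rose by 1.06. These lists overlap the genes commonly used as cytoplasmic references: of 12 such genes, GAPDH (−1.41), ACTB (−1.31) and EEF1A1 (−1.38) among them, the ratio fell for 11. EEF2 was the member not called, at −0.84 (adjusted p = 0.052). The reference genes' median ratio was 0.95 in hPSC and −0.46 in ectoderm. In the authors' TPM plus 1, where the median of all genes was 0.53, fewer of these falls passed: 9 translation factors, 26 mitochondrial ribosomal proteins, 20 respiratory chain subunits, 6 proteasome subunits (median −0.32), 7 glycolytic enzymes, 1 chaperone gene (median −0.20), 10 actin and tubulin genes and 7 reference genes.

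The metallothioneins, small proteins that bind zinc and copper, had the largest falls of any list. All 6 tested members fell, with a median of −4.51 and median ratios of 4.23 in hPSC and −0.36 in ectoderm. MT2A was at 69.1, 25.7 and 23.0 CPM in hPSC cytoplasm and at 3.45, 1.26 and 2.37 in hPSC nucleus. Ectoderm libraries held 15.9, 16.5 and 21.2 CPM in cytoplasm and 13, 27.2 and 19.9 in nucleus, so that the fractions overlapped (change −4.20, SE 0.60, adjusted p = 0.00015). MT1E, a neighbour in the same gene cluster on chromosome 16, changed by −4.79 (SE 0.64), and MT1G by −4.81 (SE 1.11). MT1G had at most 9 counts in any ectoderm library, so its ectoderm ratio of −0.37 rests on few counts. ODC1, the first enzyme of polyamine synthesis, was at 329.8, 315.8 and 315.5 CPM in hPSC cytoplasm and at 103.7, 76.3 and 86.3 in hPSC nucleus. In ectoderm it was at 285.9, 286 and 273.7 CPM in cytoplasm and at 342.9, 497.4 and 348 in nucleus. The cytoplasm level thus moved little and the nucleus level was higher in each ectoderm library, with a change of −2.34 (SE 0.22, adjusted p = 1.5e-05).

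The listed mRNAs of secreted proteins, and of membrane proteins outside the mitochondria, moved in the other direction. Of 39 tested matrix genes (collagens, laminins, fibrillins and other proteins secreted around cells), the ratio rose for 37 and fell for 0, with a median of 1.87. They remained on the nucleus side in both cell types: the median ratio was −4.02 in hPSC and −2.03 in ectoderm, and 36 of 39 were called higher in ectoderm nucleus. LAMB1, the beta-1 chain of laminin, was at 10.1, 15.8 and 15.9 CPM in hPSC cytoplasm and at 174.7, 284.4 and 200.8 in hPSC nucleus. The ectoderm values were 287.6, 255.4 and 254.4 CPM in cytoplasm and 651.1, 440.3 and 622.6 in nucleus. The nucleus exceeded the cytoplasm in every library of both cell types, by far more in hPSC (ratio −3.96) than in ectoderm (−1.10), a change of 2.86 (SE 0.30, adjusted p = 2.9e-05). COL5A1, a fibrillar collagen, rose by 2.91 (SE 0.20), and COL11A1, another, by 2.98. The members not called were EFEMP2 (−0.09) and HAPLN1 (1.21, adjusted p = 0.16), named after their values were seen.

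The same held for the lists of membrane proteins outside the mitochondria. Of 28 integrins, cadherins and protocadherins the ratio rose for 22 and fell for 0 (median 1.71), with CELSR1, an atypical cadherin, at 3.23 and ITGAV, an integrin chain that binds fibronectin and vitronectin, at 2.98. Of 12 gamma protocadherins, neuronal adhesion proteins made from 1 gene cluster, 11 rose (median 2.29), and 7 of 10 tested in the authors' TPM plus 1 (median 0.88). These genes share their last exons, so reads of one can be counted for another. Of 167 solute carriers other than mitochondrial ones, 117 rose and 2 fell (median 1.09, in which 3 genes with a group of at most 3 counts per library keep their fitted values), with SLC7A11, the cystine-glutamate exchanger, at 3.21 and SLC4A7, a bicarbonate transporter, at 2.78. The mitochondrial SLC25 carriers, which reach their membrane without passing through the ER, gave 5 rises and 14 falls among 38 genes (median −0.27).

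Of 40 genes of ER translocation and folding the ratio rose for 26 and fell for 3 (median 0.96). CANX, which encodes the lectin chaperone calnexin, was at 101.2, 139.2 and 144.7 CPM in hPSC cytoplasm and at 1272, 1473 and 1478 in hPSC nucleus. Ectoderm libraries held 292.1, 220.9 and 259.9 CPM in cytoplasm and 798.9, 711.8 and 860 in nucleus. The 2 fractions lay closer together in ectoderm, and no cytoplasm library reached a nucleus library in either cell type (change 1.84, SE 0.23, adjusted p = 6.5e-05). The 3 falls were SEC61G (−1.99), a small subunit of the translocation channel, and SRP14 (−1.01) and SRP68 (−0.93), cytosolic proteins of the signal recognition particle. SPCS3, a signal peptidase subunit, rose by 2.22.

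The mRNAs encoded in mitochondria rose together, also within the nucleus side. Of 13, the ratio rose for 11 and fell for 0 (median 1.82), with a median ratio of −5.51 in hPSC and −3.24 in ectoderm. MT-ND5, a subunit of complex I, was at 73.4, 71.1 and 106.7 CPM in hPSC cytoplasm and at 6743, 6912 and 7814 in hPSC nucleus. In ectoderm it was at 515.6, 430.5 and 679.1 CPM in cytoplasm and at 4157, 7700 and 6632 in nucleus. The nucleus values of the cell types overlapped, and the cytoplasm values did not (change 2.91, SE 0.37, adjusted p = 6.6e-05). MT-ND3 (1.67, adjusted p = 0.10) and MT-ND4L (1.82, adjusted p = 0.086) were not called. The change of the mitochondrial mRNAs moved with that of the matrix, membrane and ER genes, and its part in their result was not tested.

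**Figure D2:**
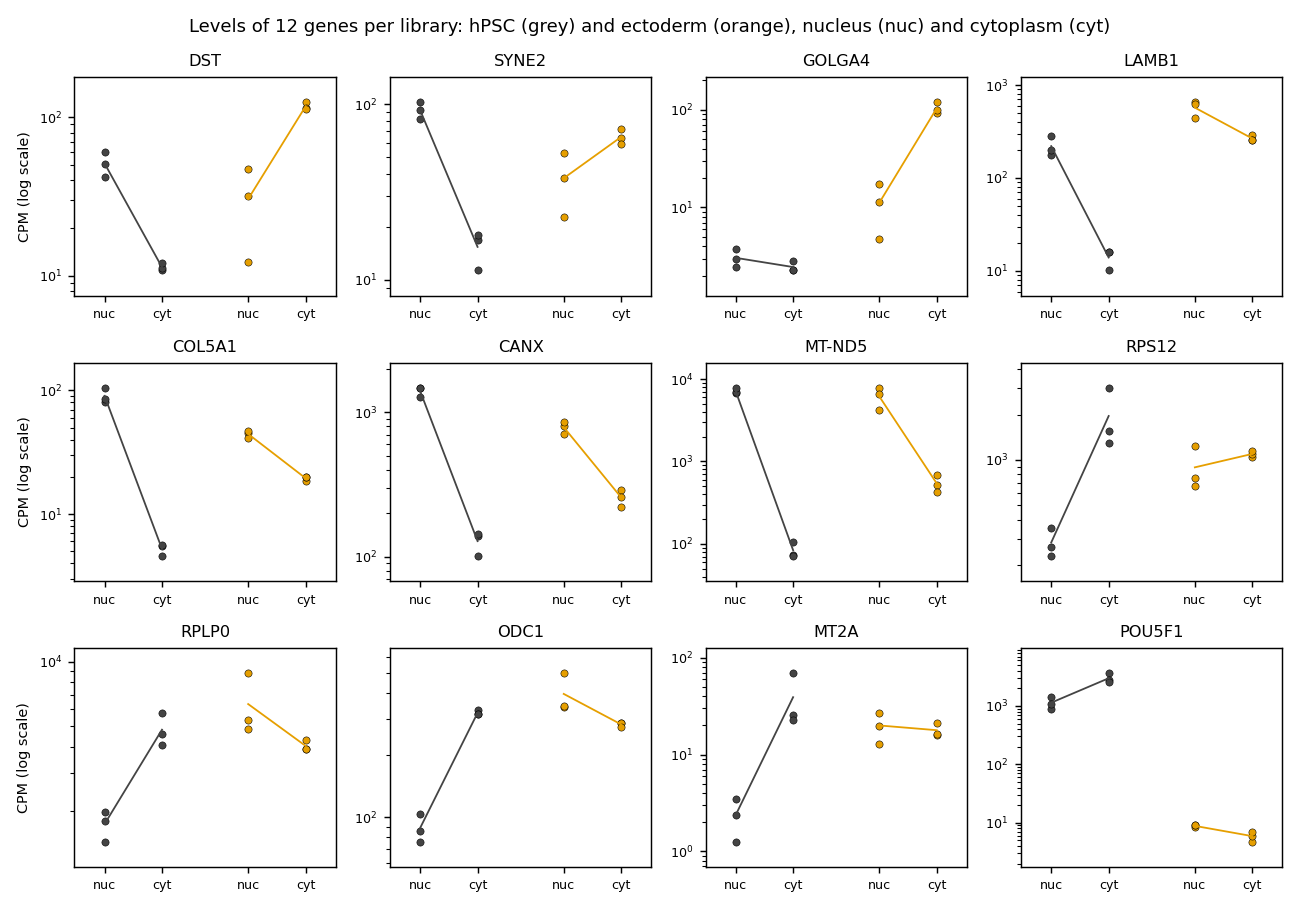
Level in CPM (log scale) of 12 genes in each nucleus (nuc) and cytoplasm (cyt) library of hPSC (grey) and ectoderm (orange); points are libraries and lines join the group means. RPLP0 changes its order between the cell types, LAMB1, CANX and MT-ND5 keep the nucleus above the cytoplasm in both, and DST and SYNE2 turn to the cytoplasm in ectoderm.

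A list named nuclear-retained RNAs held 13 tested long noncoding RNAs. NORAD and GAS5 were among them, and not all members are known for staying in the nucleus. The ratio rose for 8 of the 13 and fell for 0 (median 1.46). The number of rises was 3 of 10 tested on the Ensembl transcripts listed in both tables (median 0.34) and 5 when ectoderm cytoplasm replicate 1 was left out. With the nucleus as denominator the median ratio was −0.19 in hPSC and 0.56 in ectoderm. MIAT rose by 1.48. TUG1 rose by 1.50, but its value was −1.14 on the shared Ensembl transcripts, and FTX rose by 2.21, a call lost there and without ectoderm cytoplasm replicate 1. MALAT1, which lies in nuclear speckles, was at 237.5, 259.6 and 205.9 CPM in hPSC cytoplasm and at 79.3, 108.5 and 85.2 in hPSC nucleus. The ectoderm values were 2002, 1126 and 1566 CPM in cytoplasm and 321.6, 44.6 and 184.3 in nucleus. The ectoderm nucleus libraries lay far apart, and the change of 1.73 (SE 0.64, adjusted p = 0.037) missed the threshold under 10 of 26 other settings. NEAT1, the scaffold of paraspeckles, rose by 1.32 (adjusted p = 0.030).

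Of 19 CLK kinases and other genes known for introns that stay unspliced in nuclear RNA, the ratio rose for 12 and fell for 1 (median 0.81). NKTR rose by 2.35, OGT, the enzyme that attaches GlcNAc to nuclear and cytosolic proteins, by 2.21 and PNISR by 1.85. OGT was at 143.7, 117.7 and 139.6 CPM in hPSC cytoplasm and 405.8, 560.8 and 425.7 in hPSC nucleus, and at 301.6, 276.3 and 258.7 in ectoderm cytoplasm and 239.5, 145.5 and 241.2 in ectoderm nucleus. It lay on the nucleus side in each hPSC library and on the cytoplasm side in each ectoderm library. The SR splicing factors, which bind exons, showed no common direction: 1 of 13 rose and 4 fell, with SRSF11 at 1.61 and SRSF9 at −0.93. Of 24 hnRNP genes 2 rose and 9 fell, of 18 nonsense-mediated decay factors 3 rose and 2 fell, and of 23 mRNA export factors 3 rose and 11 fell. Over all genes tested 27% rose and 22.4% fell. The medians of the SR, hnRNP and decay lists changed sign with some other scalings, TPM among them.

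There were 843 genes (6.35%) called on opposite sides in the cell types, 336 (2.53%) toward the cytoplasm in ectoderm and 507 (3.82%) toward the nucleus. This split depended on the scaling and the threshold. Without TMM factors it was 458 and 61, and in the authors' TPM plus 1 it was 352 and 2. With at least a 2-fold change also required in each test it was 78 and 3, so most turns were small on at least 1 side. The number of genes on opposite sides fell to 472 without ectoderm cytoplasm replicate 1. Among those toward the cytoplasm were genes with long annotated transcripts. DST, the cytoskeletal linker dystonin (chromosome 6, 56457987 to 56954628, minus strand, GENCODE on GRCh38), has an annotated transcript of 22431 bases. It was at 10.8, 11.2 and 12 CPM in hPSC cytoplasm and at 50.6, 60.8 and 42.1 in hPSC nucleus. Ectoderm libraries held 124.1, 114.7 and 112.7 CPM in cytoplasm and 47.3, 12.2 and 32.1 in nucleus, which turned the order in every library (change 4.13, SE 0.47, adjusted p = 3.5e-05). SYNE2 (chromosome 14, 63852983 to 64226433, plus strand; 21842 bases), which encodes nesprin-2, a protein that ties the nuclear envelope to actin, was at 11.3, 16.9 and 18.1 CPM in hPSC cytoplasm and at 92.2, 102.4 and 82.7 in hPSC nucleus. In ectoderm it was at 72.1, 64.2 and 59 CPM in cytoplasm and at 52.9, 22.8 and 37.9 in nucleus (change 3.36, SE 0.35, adjusted p = 2.6e-05). BOD1L1, a protector of stalled replication forks, changed by 3.72, TTC3, a ubiquitin ligase, by 3.20 and ZNF91, a zinc finger repressor of retroelements, by 3.57.

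Toward the nucleus, the genes named for turning were SAC3D1 (0.88 in hPSC, −0.83 in ectoderm), RPP25, a subunit of RNase P and RNase MRP (change −1.70), FAM174C (−1.53), MRPS12, a mitochondrial ribosomal protein (−2.02), and ZNHIT2 (−1.63). RPP25 was at 68, 52.4 and 49.8 CPM in hPSC cytoplasm and 31.7, 32.7 and 27.7 in hPSC nucleus, and at 7.86, 6.91 and 7.47 in ectoderm cytoplasm and 11.8, 15.4 and 11.7 in ectoderm nucleus. The groups did not overlap in either cell type, at a lower level in ectoderm in both fractions.

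Each cell type was counted on its own transcript assembly, so assembly and cell type cannot be told apart. The number of listed transcripts differed for several of the genes with the largest rises: 3 in hPSC and 16 in ectoderm for DST, 1 and 15 for GOLGA4, a golgin of the trans-Golgi, 1 and 14 for LSAMP, a neuronal adhesion protein, and 1 and 8 for VPS13C, a lipid transfer protein. It was 1 in both for CHML, a Rab escort protein, whose ratio went from −0.35 to 3.17 (change 3.52, SE 0.39). CHML was at 31.3, 28.5 and 33.3 CPM in hPSC cytoplasm and 36.6, 43.7 and 38.5 in hPSC nucleus, and at 85.8, 59.6 and 60.8 in ectoderm cytoplasm and 11.2, 3.73 and 8.81 in ectoderm nucleus, so the fractions lay close in hPSC and far apart in ectoderm. The largest fitted rise among called genes of at least 10 CPM whose library ratios did not overlap, 5.41 for SMCHD1 (SE 1.52), is no measure of size, since SMCHD1 had at most 1 count in hPSC cytoplasm and at most 7 in hPSC nucleus. TSPAN9 (4.42) had at most 2 counts in ectoderm nucleus, and its change was 1.40 with ectoderm counted on the combined assembly. On the Ensembl transcripts listed in both tables, 4034 of 10477 genes were called, 2214 higher and 1820 lower. Of the 12 largest rises named here, only LSAMP (4.14), CHML (3.71) and ZNF91 (2.28) had a value there. SMCHD1, ZNF260, TSPAN9, DST, MTCO1P12, BOD1L1, GOLGA4, VPS13C and SYNE2 had none, nor had TTC3, COL5A1 and COL11A1. Their changes could thus not be checked on transcripts common to both tables.

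The genes that mark the cell types showed no common direction. Of 15 pluripotency genes tested the ratio rose for 4 and fell for 3, and of 13 neuroectoderm genes for 4 and 3. These shares lie near those of all genes tested, of which 27% rose and 22.4% fell. POU5F1, the pluripotency factor OCT4, was at 3589, 2766 and 2568 CPM in hPSC cytoplasm and 1443, 882 and 1082 in hPSC nucleus. The ectoderm values were 4.77, 5.9 and 7.07 CPM in cytoplasm and 8.35, 8.99 and 9.22 in nucleus, so the remaining RNA lay on the nucleus side (change −1.97, SE 0.30, adjusted p = 0.00023). TERF1, a telomere protein, rose by 1.67. Among neuroectoderm genes CDH2 (N-cadherin) rose by 1.89, and SFRP1 and SFRP2, secreted WNT antagonists, rose by 1.29 and 1.12. All 3 encode membrane or secreted proteins. EPCAM, an epithelial adhesion protein that was on the surface ectoderm list, rose by 2.79. The transcription factors OTX2 (−0.47) and FEZF1 (−0.50) fell by small amounts, and both values turned positive in the authors' TPM. The fall of OTX2 also lost its call under 14 other settings.

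Transcript length and a hydrophobic stretch in the protein described much of this order. Length and protein were read from the GENCODE release 29 transcript with the longest coding sequence of each gene. The transcripts counted may differ from it. Among 11858 protein-coding genes matched to that release, the median transcript length was 4248 bases for genes whose ratio rose, 2019 for those whose ratio fell and 3333 for those not called. In 5 length classes of equal size, the median ratio change went from −0.75 in the shortest to −0.16, 0.07, 0.33 and 0.70 in the longest. Spearman's rho of length with the ratio was −0.36 in hPSC and 0.06 in ectoderm across genes. A stretch of 19 residues with a mean Kyte-Doolittle hydropathy of at least 1.6, as used to look for membrane spans, was found in 3999 of the coded proteins. This class is not that of secreted and membrane proteins. The secreted LAMB1, COL5A1 and COL11A1 had no such stretch, while RPS27, EEF2 and LDHA had one. The ratio rose for 45.9% of these genes and fell for 10.5% (median 0.67), against 16.8% and 31.3% of the 7859 genes without it (median −0.16). Such a stretch was held by 58.2% of the genes that rose, 14.6% of those that fell and 29.9% of those not called.

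Each feature went with a higher ratio change within classes of the other. In the shortest class the median change was 0.06 with the stretch and −0.93 without it, and in the longest 1.09 with it and 0.45 without. The median hPSC ratio was −0.94 with the stretch and 0.36 without it, and the median ectoderm ratio was −0.40 and 0.05. Base composition related more to the ectoderm ratio than to the hPSC ratio: rho with GC content was −0.65 in ectoderm, −0.25 in hPSC and −0.25 for the change. The share of non-mitochondrial counts from the shortest class was 22.3% to 28.3% in ectoderm nucleus and 15.8% to 19.1% in hPSC nucleus. In cytoplasm it was 24.9% to 27.6% and 28.1% to 38.4%.

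**Figure D3:**
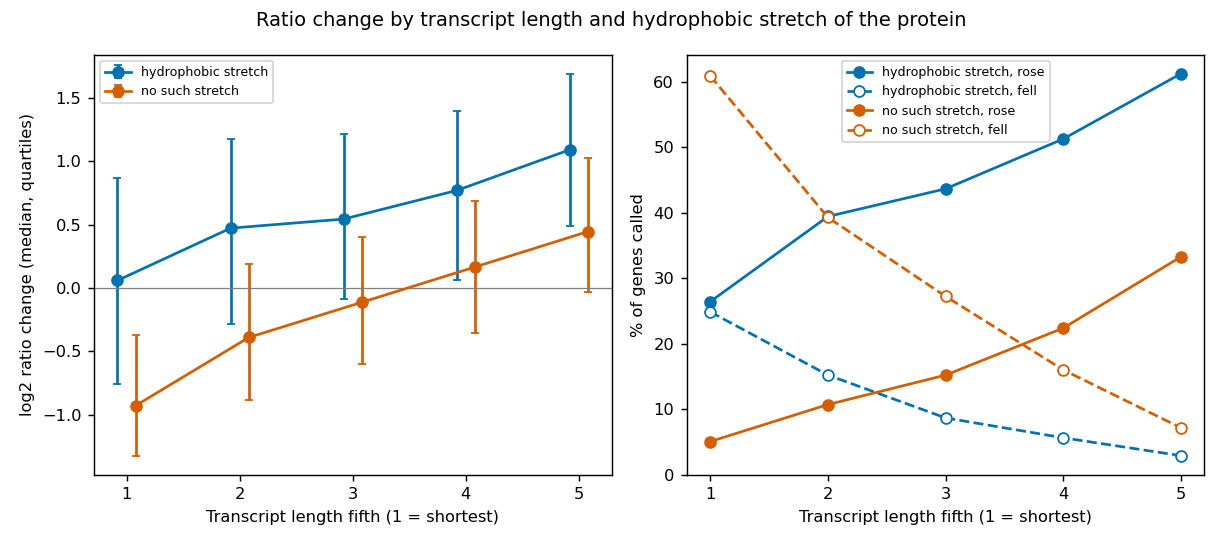
Left, median log2 ratio change with quartiles in 5 classes of transcript length (1 = shortest) for genes with (blue) and without (orange) a hydrophobic stretch; right, percent of genes in each class whose ratio rose (filled) or fell (open). Medians rise with length in both groups, and the blue line lies above the orange in each class.

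The nuclear side was also measured in the nucleoplasm and chromatin libraries. These comparisons use the same cytoplasm libraries as the main one and are not independent of it. Against nucleoplasm the ratio change was called for 3449 of 13284 genes (26%), 2233 higher (16.8%) and 1216 lower (9.15%). Against chromatin it was called for 3158 of 13331 genes (23.7%), 1411 higher (10.6%) and 1747 lower (13.1%). These splits depended on the scaling: against nucleoplasm it was 1752 and 1580 without TMM factors, and against chromatin 1923 and 1135 with mitochondrial genes left out and 1018 and 678 in TPM plus 1. Against chromatin the share of higher calls was 43.6% to 64.1% when 1 library was left out. The calls split by gene group. Of the 79 ribosomal protein genes, 75 fell against nucleus, but 1 fell and 0 rose against nucleoplasm (median −0.18), and 0 fell and 3 rose against chromatin (median 0.16). The same was seen for the 6 metallothioneins, which all fell against nucleus, with medians of −0.04 against nucleoplasm and 0.12 against chromatin and no call in either. Of the 31 proteasome genes, 26 fell against nucleus, and 2 fell and 0 rose against either other preparation. For the mitochondrial ribosomal proteins 60, 19 and 15 of 77 fell.

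The matrix, membrane and ER groups rose with each denominator. Of the 39 matrix genes 37 rose against nucleus, 32 against nucleoplasm (median 1.05) and 29 against chromatin (median 1.31). Of the 40 ER genes 26, 30 and 24 rose, with medians of 0.96, 1.00 and 1.08, and of the 13 mitochondrial mRNAs 11, 13 and 13 rose, with medians of 1.82, 2.03 and 2.57. Of the 13 noncoding RNAs on the list named nuclear-retained 8, 7 and 2 rose, with medians of 1.46, 0.57 and 0.14. The CLK and detained-intron list did not keep its direction: 12 of 19 rose against nucleus, while 3 rose and 5 fell against nucleoplasm, and 1 rose and 9 fell against chromatin. CANX rose by 1.84, 1.81 (SE 0.18) and 1.78 (SE 0.22) against the nucleus, nucleoplasm and chromatin. RPS12 changed by −2.5 against nucleus, −0.63 (SE 0.31, adjusted p = 0.15) against nucleoplasm and −0.49 (SE 0.39, adjusted p = 0.42) against chromatin.

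**Figure D4:**
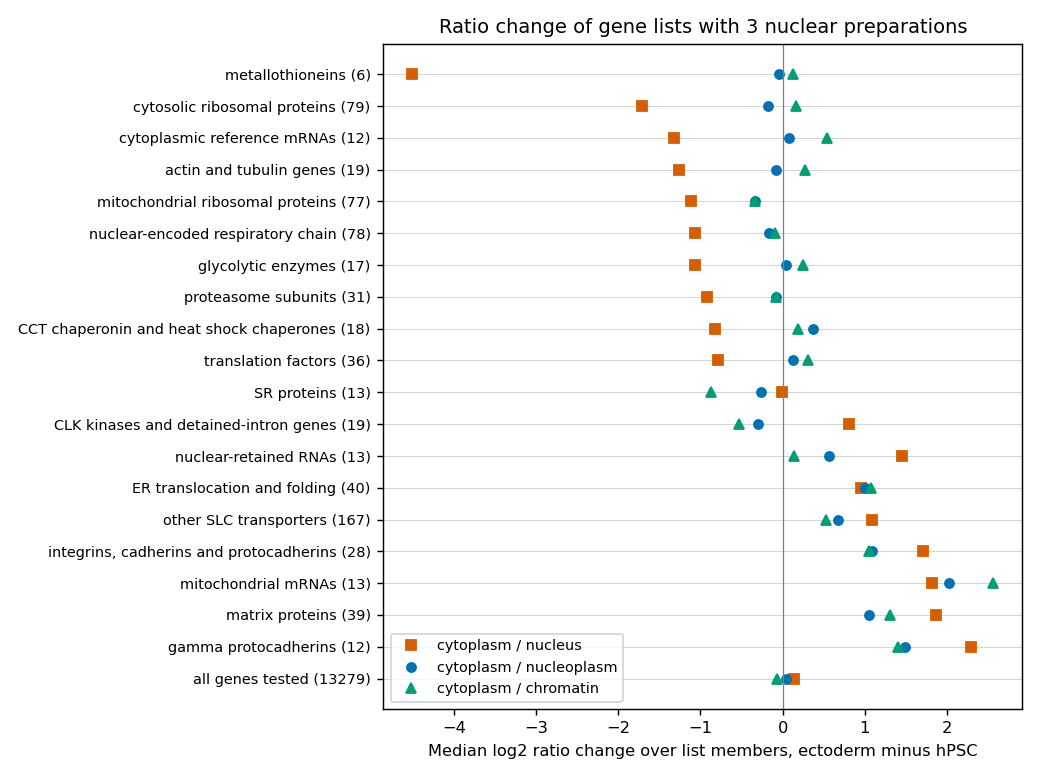
Median log2 ratio change, ectoderm minus hPSC, of the members of 19 gene lists (number of genes in brackets) and of all genes tested, with nucleus (square), nucleoplasm (circle) or chromatin (triangle) as the nuclear preparation and the same cytoplasm libraries throughout. The squares of the upper 10 lists lie far to the left of their circles and triangles, and the 3 marks of the ER list nearly coincide.

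The nuclear preparations were then compared with each other, in a test added after these results were seen. The change of the nucleus-to-nucleoplasm ratio was called for 5769 of 13262 genes (43.5%), 2953 higher (22.3%) and 2816 lower (21.2%). That of the nucleus-to-chromatin ratio was called for 6115 of 13291 genes (46%), 2936 higher (22.1%) and 3179 lower (23.9%). Without TMM factors the nucleus-to-nucleoplasm split was 1877 and 3695. Of the 79 ribosomal protein genes 78 rose in nucleus over nucleoplasm (median 1.50) and 79 in nucleus over chromatin (median 2.04). All 12 cytoplasmic reference mRNAs and all 6 metallothioneins rose in both. Of the 40 ER genes 11 rose and 1 fell in each.

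By share of a library, ribosomal protein mRNAs made 3.85% to 5.43% of hPSC nucleus counts and 10.3% to 15.0% of ectoderm nucleus counts. In nucleoplasm they made 4.99% to 5.46% in hPSC and 6.04% to 6.17% in ectoderm, in chromatin 4.99% to 5.78% and 4.17% to 4.25%, and in cytoplasm 11.4% to 19% and 13.0% to 15.4%. The ectoderm nucleus libraries thus stood above the other nuclear preparations and reached the range of the cytoplasm. RPLP0 shows this for a single gene, on the scale of all 24 libraries of both cell types. It was at 5238, 9111 and 5728 CPM in ectoderm nucleus, 2509, 2386 and 2453 in ectoderm nucleoplasm, 1393, 1230 and 1481 in ectoderm chromatin and 4074, 4651 and 4185 in ectoderm cytoplasm. In hPSC it was at 2147, 1555 and 1949 CPM in nucleus, 1839, 1585 and 1896 in nucleoplasm and 1574, 1721 and 1671 in chromatin, with 6180, 4914 and 4386 in cytoplasm. The hPSC nuclear preparations overlapped each other, and the ectoderm ones did not. Matrix mRNAs made 0.109% to 0.133% of hPSC cytoplasm and 0.362% to 0.391% of ectoderm cytoplasm, and 1.27% to 1.70% and 1.05% to 1.28% of the nucleus libraries. The cytoplasm shares of the cell types did not overlap, and the nucleus shares met near their edge.

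**Figure D5:**
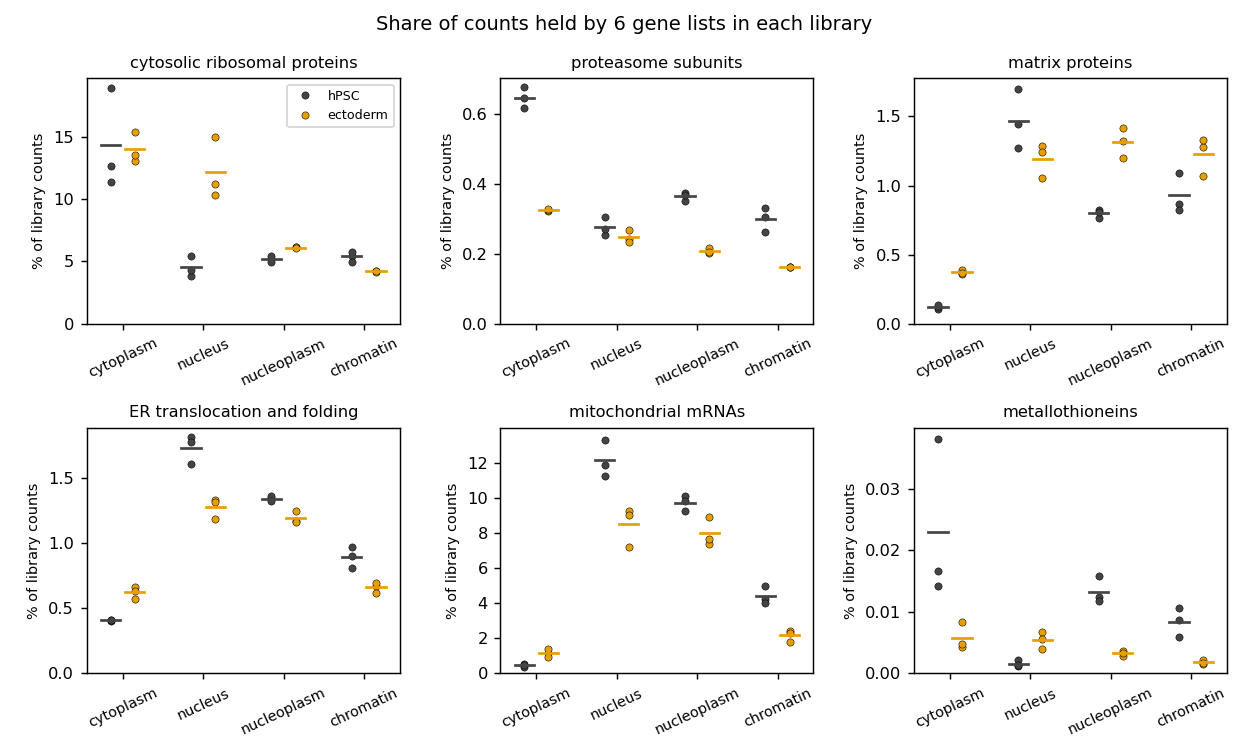
Percent of each library's counts held by 6 gene lists in cytoplasm, nucleus, nucleoplasm and chromatin libraries of hPSC (grey) and ectoderm (orange); points are libraries and bars are means of 3. Ribosomal protein mRNAs reach 10.3% to 15.0% in ectoderm nucleus and 3.85% to 5.43% in hPSC nucleus, while the cytoplasm shares overlap.

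The ratio in ectoderm was also set against the other lineages, in 1 fit over the 24 cytoplasm and nucleus libraries of 4 cell types and 10687 genes. The ectoderm ratio differed from that of endoderm for 5487 genes (51.3%), 2765 higher (25.9%) and 2722 lower (25.5%), and from that of mesoderm for 6258 (58.6%), 3020 higher (28.3%) and 3238 lower (30.3%). Without TMM factors these splits were 1769 and 4199 for endoderm and 4301 and 2006 for mesoderm. With upper-quartile factors that for endoderm was 2227 and 3742, and in TPM plus 1 that for mesoderm was 7313 and 639. The SD of the log2 ratio over genes was 0.885 in ectoderm, 1.25 in hPSC, 1.56 in endoderm and 1.27 in mesoderm. The ratio of ribosomal protein genes was lower in ectoderm than in endoderm for 65 of 79 (median −1.22) and lower than in mesoderm for 78 (median −3.16). Matrix genes were higher in ectoderm than in endoderm for 34 of 37 (median 2.5) and than in mesoderm for 31 (median 1.2). The mitochondrial mRNAs differed by lineage: all 13 were higher in ectoderm than in endoderm (median 2.62) and all 13 lower than in mesoderm (median −6.19). Against hPSC itself, 4054 genes (37.9%) were called for endoderm, 19.6% of all genes tested higher and 18.3% lower, with 4 falls and 1 rise among the ribosomal proteins. For mesoderm 2740 (25.6%) were called, 18.8% higher and 6.89% lower, with 64 rises and 0 falls among them. These contrasts share the hPSC or the ectoderm libraries with the main one.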

How the data were processed

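The authors deposited, for each cell type, tables of whole-number counts and of TPM per transcript. Per the submitters' processing notes, hg38, STAR and RSEM were used; their roles and versions are not given in the sources used here. The deposited counts per transcript were summed per Ensembl gene over the genes of both tables. The ratio change was the interaction contrast of a means model over 4 groups, fitted with the quasi-likelihood F test of edgeR 4.0.16 under R 4.3.3. Libraries were scaled by TMM, low genes were dropped by filterByExpr at 10 counts, and p-values were Benjamini-Hochberg adjusted, with calls under 0.05. CPM are TMM-scaled. The same contrast was fitted with nucleoplasm or chromatin as denominator and over 24 libraries of 4 cell types. The authors' TPM, plus 1 or 0.1 and on the log2 scale, were tested with limma 3.58.1 as an alternative, and DESeq2 1.42.0 was another. Tables of different assemblies were deposited separately, so levels between cell types are set across tables. 1 column of the ectoderm count table belongs to no sample and was not used. Named genes were the 12 largest changes in each direction among called genes averaging 10 CPM or more whose library ratios do not overlap, the 5 in each direction called on opposite sides with the largest smaller ratio, and leading members of the lists. The members and lists were chosen with earlier results of these data known. On simulated data of 13279 genes with 200 changed, 37% of the 2-fold and 96% of the 4-fold changes were recovered, with 4 false calls. In the data 6562 genes (49.4%) were called. The number of false calls with a share of changed genes that large was not tested.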

Additional observations from a re-analysis of the deposited data

Results flagged for a closer look

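The change of the cytoplasm-to-nucleus ratio between ectoderm and hPSC was itself a test of a difference between groups, which 6562 genes passed, and 843 genes were called on opposite sides. The genes named for the size of their change are listed with their log2 ratio change. It rose for SMCHD1 (5.41), ZNF260 (4.51), TSPAN9 (4.42), DST (4.13), LSAMP (3.85), MTCO1P12 (3.74), BOD1L1 (3.72), ZNF91 (3.57), GOLGA4 (3.56), CHML (3.52), VPS13C (3.40), SYNE2 (3.36) and TTC3 (3.20). It fell for MT1G (−4.81), MT1E (−4.79), MT2A (−4.20), RPS28P7 (−2.88), MT1X (−2.77), TOMM7 (−2.58), LINC01405 (−2.52), RPS12 (−2.50), RPL36AP37 (−2.46), RPS28 (−2.40), ODC1 (−2.34) and ATOX1 (−2.31). It also fell for genes that turned to the nucleus side, SAC3D1 (−1.72), RPP25 (−1.70), FAM174C (−1.53), MRPS12 (−2.02) and ZNHIT2 (−1.63). MTCO1P12, RPS28P7 and RPL36AP37 are near-identical copies of other genes, so their reads may belong to those, and SMCHD1 and TSPAN9 rest on a group with at most 3 counts in each library.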

How the results depend on the processing

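Of 156 called genes among the 186 named, 150 kept their direction and 115 their call under each alternative run that gave them a value. For several, DST and SYNE2 among them, the run on shared Ensembl transcripts gave none and is not counted. The sign of the median was kept by 27 of 37 lists. Leaving out 1 library gave 5554 to 6870 ratio changes, 7485 to 9064 calls between fractions in hPSC and 5327 to 7216 in ectoderm, 472 to 1107 genes on opposite sides (1107 without ectoderm nucleus replicate 1), 2655 to 3756 changes against nucleoplasm, 2374 to 4519 against chromatin (2374 without ectoderm chromatin replicate 1), 5018 to 5960 differences from endoderm, 5623 to 6293 from mesoderm, 4726 to 6238 nucleus-to-nucleoplasm and 5045 to 6696 nucleus-to-chromatin changes. With a change of at least 2-fold also required, the counts were 4124 ratio changes, 4765 in hPSC, 2797 in ectoderm, 81 on opposite sides, 1325 against nucleoplasm, 1771 against chromatin, 3289 from endoderm and 4091 from mesoderm. Without TMM factors 519 genes lay on opposite sides. In TPM plus 1 the counts were 354 on opposite sides, 1686 against nucleoplasm and 1696 against chromatin, and in TPM plus 0.1 they were 308, 1354 and 1156. On shared Ensembl transcripts they were 4034 ratio changes, 355 on opposite sides, 1548, 1561, 2994 from endoderm and 3888 from mesoderm. With the stricter rule the counts fell by construction. On shared Ensembl transcripts fewer genes were tested, 10477 against 13279 for the ratio change, and the share called was lower as well. For that run and for the scalings the cause was not tested. Reversed values of 6 called genes were TSPEAR-AS2 1.29 (TPM plus 1) and 1.44 (combined assembly), FEZF1 0.15 and 0.10, OTX2 0.14 and 0.13, SRSF7 0.060 and 0.072 (TPM plus 1 and plus 0.1), SLC38A10 −4.66 and TUG1 −1.14 (shared transcripts). L1TD1, which was not called, was called at −0.80 on the combined assembly. Genes not called on either side of a sign change are not listed. Whether equal replicate numbers mark cytoplasm and nucleus from the same lysate cannot be settled here. The correlation of deviations from the group mean was −0.09 to 0.47 for same-numbered libraries and −0.5 to 0.34 for differently numbered ones. The main fit used no pairing, and a fit with the replicate block called 6802 ratio changes. At 7738946 to 21298678 counts per library, genes of a few counts have no measurable ratio.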

Other observations

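Other gene groups are given beside 27% higher and 22.4% lower over all genes tested. Of 21 immediate early and MYC family genes, many of which cells switch on within minutes of a stimulus, the ratio fell for 11 and rose for 1 (median −0.65), but fell for 2 in the authors' TPM plus 1. JUN was at 21.2, 22.3 and 28.2 CPM in hPSC cytoplasm and 11.3, 8.88 and 8.70 in hPSC nucleus, and at 50.7, 51.6 and 49.4 in ectoderm cytoplasm and 67.4, 80.6 and 62.6 in ectoderm nucleus, so its order turned without overlap (change −1.79). Of 22 replication licensing genes 11 fell and 0 rose, with GINS2 at −1.73. In the authors' TPM 1 fell, and the list's median was positive (0.25 with 0.1 added). Of 30 mitosis genes 7 rose and 7 fell, with the long mRNAs of ASPM (2.35), CENPF (2.19) and CENPE (2.17) among the rises. Of 25 cholesterol synthesis genes, many of whose proteins sit in the ER membrane, 11 rose and 7 fell. Of 408 zinc finger genes 102 rose and 57 fell. The shares of the mitosis and zinc finger genes lie near or below those of all genes.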
